A study of Mus musculus with 2 samples.

Results

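Satellite cells are the stem cells of skeletal muscle, and 10 genes that encode proteins of their surface were described in libraries of quiescent and activated cells. The genes were chosen by symbol, as Calcr, Chodl, Cd34, Sdc4, Sdc3, Vcam1, Itga7, Itgb1, Cd82 and Cxcr4, and all 10 were found among the 32285 features counted. The study compared quiescent satellite cells (QSCs) with activated satellite cells (ASCs) by droplet-based single-cell RNA sequencing, in which a barcode marks the droplet and a unique molecular identifier (UMI) marks each transcript caught in it. Both groups came from the tibialis anterior (TA) muscle of mice with the genotype Pax7 CreERT2/+;Rosa26 mTmG/+, taken at 8 weeks of age. In these mice an inducible Cre, expressed from the Pax7 locus, switches a membrane reporter in Pax7-expressing cells, so that the sorted cells carry the history of Pax7 expression rather than its present level. The QSC library was made from uninjured muscle and the ASC library from muscle taken 1.5 days after an injection of cardiotoxin (CTX), which destroys the fibres. A single library, from a pool of 5 mice, stood for each group, so group and library cannot be told apart, the differences below are without replicates, and no p-value was computed. Every interval below is a 95% interval and covers counting error only.

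A quiescent satellite cell lies between the membrane of a muscle fibre and the basal lamina around it, and its surface proteins hold it there and receive signals from the fibre and the matrix. Calcr, the calcitonin receptor, also responds to collagen V and is known for keeping the cells quiescent, while Cxcr4 is the receptor of the chemokine Cxcl12. Itga7 and Itgb1 are the alpha and beta chains of a laminin-binding integrin, Vcam1 is an adhesion molecule that binds the integrin of Itga4 and Itgb1, and Sdc3 and Sdc4 are heparan sulfate proteoglycans. Cd34 is a sialomucin, Chodl a membrane protein with a C-type lectin domain, and Cd82 a tetraspanin, and several of these proteins are used to sort satellite cells.

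The sequences before the start sites of Chodl, Calcr and Cd82 are shown because the first pair had the lowest ratios of ASC over QSC among the 10 genes and Cd82 the highest. RefSeq promoter windows of the GRCm38.p6 assembly were matched for 8 of the 10 genes, with 12 windows in all, and the 250 bases before each start site were searched for CANNTG (the E-box, bound by myogenic factors), TGGGAA (the core bound by RBPJ, the Notch effector) and TGANTCA (the AP-1 motif), on both strands. Below, the run for Chodl is chr16:78930698-78930947 on the plus strand, that for Calcr is the first of 2 windows, chr6:3764714-3764963 on the minus strand, and that for Cd82 is the first of 4 windows, chr2:93462951-93463200 on the minus strand. The start sites are those of RefSeq. Part of the Cd82 window lies inside the gene as annotated in GENCODE M21, which on this strand starts at 93463140. Capitals mark the motif matches.
Chodl: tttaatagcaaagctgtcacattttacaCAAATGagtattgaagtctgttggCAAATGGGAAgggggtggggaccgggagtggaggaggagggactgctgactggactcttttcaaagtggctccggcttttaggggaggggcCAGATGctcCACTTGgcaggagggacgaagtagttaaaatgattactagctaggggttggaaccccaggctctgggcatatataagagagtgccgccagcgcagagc
Calcr: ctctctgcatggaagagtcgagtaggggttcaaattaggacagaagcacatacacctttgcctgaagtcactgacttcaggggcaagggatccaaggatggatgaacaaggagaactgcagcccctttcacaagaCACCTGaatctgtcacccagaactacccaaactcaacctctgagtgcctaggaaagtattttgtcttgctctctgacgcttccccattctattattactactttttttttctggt
Cd82: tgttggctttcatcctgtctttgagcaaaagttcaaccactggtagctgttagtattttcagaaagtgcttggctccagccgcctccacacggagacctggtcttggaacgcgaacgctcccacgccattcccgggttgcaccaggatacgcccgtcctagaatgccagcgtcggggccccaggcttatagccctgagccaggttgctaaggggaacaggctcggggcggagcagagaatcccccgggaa
The Chodl window held 4 E-boxes, with first bases at -222, -198, -107 and -98 from the start site, and 1 TGGGAA match at -194 that overlaps the E-box at -198. A window with at least 4 E-boxes was found for 3.84% of all 32851 promoter windows of this length, whereas 66.2% held at least 1, 21.6% held TGGGAA and 6.75% held TGANTCA. The Calcr window held 1 E-box at -115, and the Cd82 window shown held no match to the 3 motifs, while windows 3 and 4 of the gene held 1 E-box each, at -179 and -236. No match was found in the windows of Cd34, Sdc3, Sdc4, Itgb1 and Cxcr4, which says only that these letters are not in those 250 bases.

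Barcodes with at least 500 genes were kept where mitochondrial genes held no more than 10% of UMIs, which left 516 QSC barcodes with a median of 2155 UMIs and 1468 ASC barcodes with a median of 3502 UMIs. Many barcodes carried transcripts of muscle fibres. Barcodes with at least 5% of UMIs from 12 contractile genes, called contractile-high, made up 20.2% of QSC barcodes and 64.7% of ASC barcodes. After these and the barcodes with at least 1% of UMIs from immune, endothelial, fibroblast or mural markers were set apart, 366 QSC and 423 ASC barcodes remained, called contractile-low muscle barcodes. A UMI of Pax7, Myf5, Myod1, Myog or Msc was found in 81.4% of the QSC and 87.2% of the ASC barcodes of this class, against 7.69% and 47.9% of contractile-high barcodes. In the contractile-low muscle barcodes the level of Pax7, in UMIs per 1e6 UMIs (CPM), was 213 in QSCs and 29.8 in ASCs, and that of Myog 34.6 and 927 CPM, with 28 of the 29 QSC Myog UMIs in 1 barcode. These classes are ranges of a score and not cell types, and 40 ASC barcodes lay within 20% of the contractile limit. Of the kept barcodes, 2 of the QSC library and 3 of the ASC library had a sequence that the other library also deposited, and doublets were not removed.

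Over all kept barcodes, Chodl, Calcr, Sdc4, Cd34 and Vcam1 were at least 2-fold lower in the ASC library, none of the 10 genes was at least 2-fold higher, and 5 were within 2-fold. The background for these counts is that 25.2% of the 9467 genes with a mean of at least 5 CPM were at least 2-fold lower and 13.1% at least 2-fold higher. The median log2 ratio (ASC over QSC) of the 10 genes was -1.33, beside -0.19 over all those genes. Calcr, at 1.91 CPM in the ASC library, reached the mean of 5 CPM only through the QSC library, so the filter helped to set its call. Genes with at least 20 UMIs in each library had a median log2 ratio of -0.24, and relative to that shift the median of the 10 genes was -1.10. The number of the 10 genes at least 2-fold higher was 2 with TMM scaling and 1 with scaling to the median gene. At the study's limit of 1% mitochondrial UMIs it was 3, only 3 genes were at least 2-fold lower, and the log2 ratios of Sdc4 (0.63) and Cd34 (1.74) changed sign. That limit left 86 QSC barcodes, 85 of them contractile-high, with 25 UMIs of the 10 genes, so the ratios there rest on few QSC counts. In a sum over a library, fewer cells that express a gene and less RNA of it per cell cannot be told apart.

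Restricting the comparison to contractile-low muscle barcodes left 4 genes at least 2-fold lower in the ASC library (Chodl, Calcr, Sdc4 and Vcam1), 1 at least 2-fold higher (Cd82) and 5 within 2-fold. The number at least 2-fold higher was 2 with TMM scaling and 2 with every barcode weighted equally. Of the 9283 genes compared there, 26.0% were at least 2-fold lower and 16.2% at least 2-fold higher. Calcr, at 3.02 CPM in the ASC barcodes, again reached the mean of 5 CPM only through the QSC library. The median log2 ratio of the 10 genes was -0.79, or -0.52 relative to the shift of -0.26 of well-counted genes. Early-response genes, which dissociation of the tissue can induce, moved with the comparison, since the summed level of 13 of them was 34059 CPM in the QSC and 4295 CPM in the ASC barcodes. Fibroblast markers moved with it as well, at a summed level of 3506 and 697 CPM with Pdgfra at 0 in the ASC barcodes, and so did mural markers at 354 and 1200 CPM. Immune markers summed to 161 and 239 CPM with Cd52 at 0 in the QSC barcodes, and contractile markers to 16647 and 19301 CPM. The part of these in the ratios of the 10 genes was not tested.

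**Figure D1:**
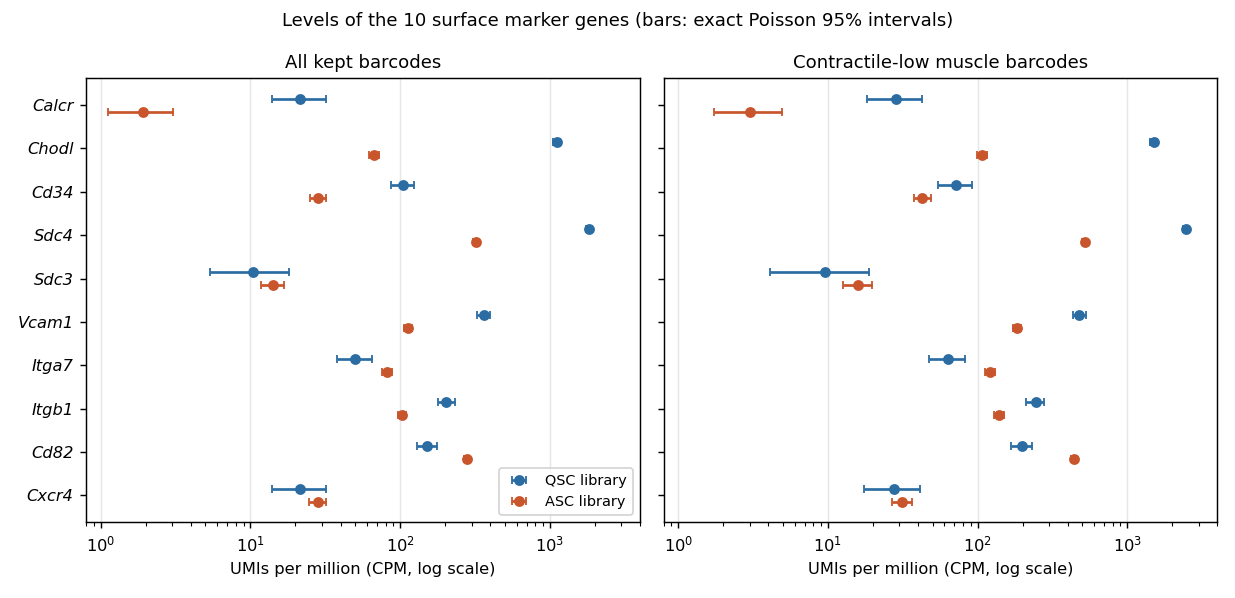
Level of each gene in CPM on a log axis in the QSC library (blue) and the ASC library (orange), over all kept barcodes (left) and over contractile-low muscle barcodes (right), with exact Poisson 95% intervals. Calcr, Chodl, Sdc4 and Vcam1 lie well to the left in the ASC library in both panels, whereas Cd82 and Itga7 lie to the right, and the intervals of Sdc3 and of Cxcr4 overlap.

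**Figure D2:**
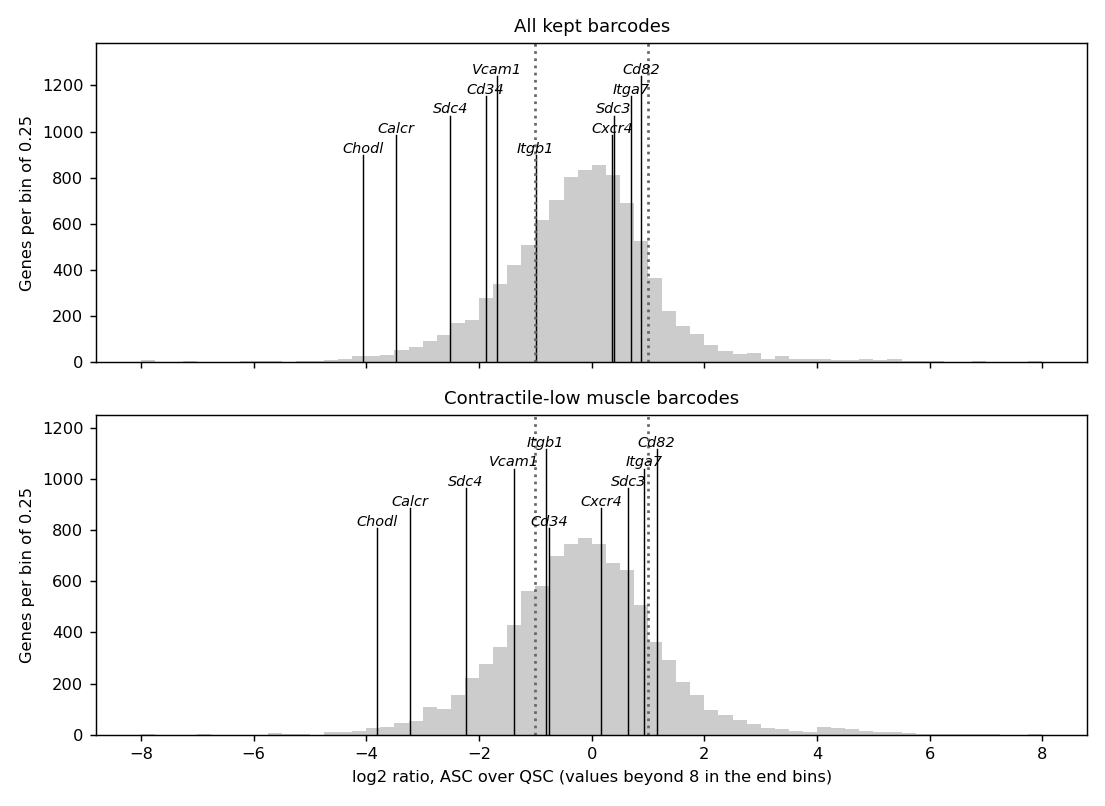
Number of genes by log2 ratio of ASC over QSC in bins of 0.25 (grey), with the 10 surface marker genes as black lines and dotted lines at a 2-fold difference, over all kept barcodes (top) and contractile-low muscle barcodes (bottom). Chodl and Calcr stand in the lower tail of both distributions, and Cd34 moves from -1.88 to -0.76 when the comparison is restricted.

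Of the receptors, Calcr was scarce and found mostly in the QSC library. Its level in contractile-low muscle barcodes was 28.7 CPM (18.4 to 42.6, 24 UMIs) for QSCs and 3.02 CPM (1.73 to 4.91, 16 UMIs) for ASCs. The gene (chr6:3685680-3764714, minus strand, GENCODE M21 on GRCm38) was thus 9.39-fold lower in the ASC barcodes, a log2 ratio of -3.23 (-4.26 to -2.27), which was -2.13 with every barcode weighted equally. Among ASC barcodes, those with at least 0.2% of UMIs from 20 cell cycle genes were called cycling (111), the others with at least 2 Myog UMIs and 250 CPM of Myog, the factor that starts differentiation, were called Myog-high (82), and the rest Myog-low (230). The 16 ASC UMIs of Calcr were split as 9 in Myog-low, 4 in cycling and 3 in Myog-high barcodes, at 5.33, 1.51 and 3.13 CPM, and these levels did not differ beyond counting error. All 3 classes were below the QSC level, with log2 ratios from -4.11 to -2.38 whose intervals left out 0. Outside the contractile-low muscle barcodes, the ASC library held 1 Calcr UMI, in 950 contractile-high barcodes.

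Cxcr4 did not differ between the libraries beyond counting error. Its level in contractile-low muscle barcodes was 27.5 CPM (17.4 to 41.2) in the QSC and 31.4 CPM (26.8 to 36.5) in the ASC library, and the log2 ratio was 0.16 (-0.44 to 0.89). The ASC classes were not alike. Cxcr4 was at 56.3 CPM in Myog-high, 39.7 CPM in Myog-low and 17.0 CPM in cycling barcodes, and the Myog-high level exceeded the cycling level by 1.72 on the log2 scale (1.13 to 2.33). The Myog-high and Myog-low levels did not differ beyond counting error (0.51, -0.04 to 1.04). Against QSC contractile-low muscle barcodes, the Myog-high level was higher by 1.02 on the log2 scale (0.31 to 1.81). Among classes of at least 20000 UMIs the highest level was that of the ASC immune barcodes at 135 CPM (105 to 171), so that 27.6% of the ASC Cxcr4 UMIs lay in 88 barcodes. The gene lies at chr1:128588199-128592293 on the minus strand.

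The adhesion genes moved in different directions. Vcam1 (chr3:116109949-116129688, minus strand) was at 477 CPM (431 to 526) in the QSC and 183 CPM (172 to 195) in the ASC contractile-low muscle barcodes, 2.60-fold lower with a log2 ratio of -1.38 (-1.55 to -1.21). Within the ASC library it followed the order Myog-low at 272 CPM, cycling at 154 CPM and Myog-high at 108 CPM, and each step was beyond counting error. With every barcode weighted equally, the log2 ratio of Vcam1 was -0.98 and so just inside 2-fold.

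Both chains of the laminin-binding integrin were measured, and they differed in direction. Itga7 (chr10:128933818-128958282, plus strand) was at 63.3 CPM (47.4 to 82.8) in the QSC and 121 CPM (112 to 131) in the ASC contractile-low muscle barcodes, a log2 ratio of 0.93 (0.53 to 1.37). Itgb1 (chr8:128685654-128733200, plus strand) was at 244 CPM (211 to 279) and 139 CPM (129 to 149), a log2 ratio of -0.82 (-1.04 to -0.58). Neither chain differed among the ASC classes beyond counting error, with Itga7 between 111 and 126 CPM and Itgb1 between 136 and 143 CPM. Relative to the shift of well-counted genes, the log2 ratio was 1.19 for Itga7 and -0.55 for Itgb1. Both chains were also found in contractile-high barcodes. Itga7 was there at 29.5% (4 UMIs) and 20.5% of the contractile-low muscle level in the QSC and ASC libraries. Itgb1 was at 7.65% (4 UMIs) and 29.7%. This was not particular to the 2 chains in the QSC library. Cxcr4 was at 17.0% (1 UMI) and 14.6%, Vcam1 at 7.83% (8 UMIs) and 5.70%, and Sdc4 at 1.71% and 3.65%.

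Among the proteoglycans, Sdc4 was lower in the ASC library and Sdc3 was too scarce to compare. Sdc4 (chr2:164424247-164443887, minus strand) was at 2453 CPM in the QSC contractile-low muscle barcodes (2054 UMIs) and 519 CPM (500 to 539) in the ASC barcodes, 4.72-fold lower with a log2 ratio of -2.24 (-2.32 to -2.16). As for Vcam1, the order across the ASC classes ran from 783 CPM (742 to 827) in Myog-low through 445 CPM (420 to 472) in cycling to 259 CPM (228 to 294) in Myog-high barcodes, where no interval overlaps another. Sdc3 (chr4:130792537-130826319, plus strand) had only 8 QSC and 84 ASC UMIs in these barcodes, or 9.55 CPM (4.12 to 18.8) and 15.9 CPM (12.7 to 19.6), and its log2 ratio of 0.65 had an interval of -0.31 to 1.99. A difference in Sdc3 between the libraries was therefore not detectable at this depth. Its level was highest in immune barcodes, with 122 CPM (4 UMIs) in the QSC and 68.5 CPM (47.7 to 95.2) in the ASC library.

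Chodl separated the libraries most among the 10 genes. Its level in contractile-low muscle barcodes was 1501 CPM (1257 UMIs) for QSCs and 107 CPM (98.3 to 116) for ASCs, 14.03-fold lower with a log2 ratio of -3.81 (-3.96 to -3.67), and 77 of the 9283 genes compared had a lower ratio. The ASC classes differed as well, with 278 CPM (253 to 304) in Myog-low, 45.8 CPM (33.3 to 61.5) in Myog-high and 20.03 CPM (15.0 to 26.2) in cycling barcodes. The cycling barcodes hold 2646532 of the 5294185 UMIs of the ASC contractile-low muscle barcodes, and with every barcode weighted equally the log2 ratio of Chodl was -2.54. At a cycling limit of 0.4% of UMIs, Chodl was at 128 CPM in Myog-low and 40.7 CPM in cycling barcodes, and 53 ASC barcodes lay within 20% of the limit of 0.2%. Nearly all of its UMIs were in contractile-low muscle barcodes, 97.1% in the QSC and 95.3% in the ASC library. The gene lies at chr16:78930948-78951733, right after the window with 4 E-boxes shown above.

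Cd34 depended on which barcodes were compared. Over all kept barcodes it was 3.68-fold lower in the ASC library, at 104 and 28.3 CPM, but 54 of its 121 QSC UMIs (44.6%) came from 21 barcodes with fibroblast markers, where it was at 804 CPM (604 to 1050). The ASC library held 1 such barcode. Within contractile-low muscle barcodes Cd34 (chr1:194938819-194961279, plus strand) was at 71.7 CPM (54.7 to 92.2) and 42.7 CPM (37.3 to 48.6), a log2 ratio of -0.76 (-1.16 to -0.31). Its level was 52.7 CPM in ASC Myog-low and 48.4 CPM in ASC cycling barcodes. The log2 ratio to QSC was within counting error for Myog-low (-0.45, -0.93 to 0.05) and beyond it for cycling barcodes (-0.57, -1.02 to -0.10). In Myog-high barcodes it was at 9.38 CPM (4.29 to 17.8, 9 UMIs), lower than in Myog-low barcodes by a log2 ratio of -2.42 (-3.67 to -1.50).

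Cd82 was higher in the ASC library. In contractile-low muscle barcodes it was at 197 CPM (168 to 230) in the QSC and 440 CPM (422 to 458) in the ASC library, 2.22-fold higher with a log2 ratio of 1.15 (0.93 to 1.39). All ASC classes exceeded the QSC level, with 418 CPM in Myog-low, 371 CPM in cycling and 666 CPM (615 to 719) in Myog-high barcodes, and the Myog-high level was above the Myog-low level by 0.67 on the log2 scale (0.52 to 0.83). Over all kept barcodes the log2 ratio was 0.88 (0.66 to 1.11), and it was 0.13 with every barcode weighted equally. Contractile-high barcodes are 64.7% of the ASC barcodes and hold 34.4% of the ASC UMIs. They held 0 of the 176 QSC and 110 of the 2485 ASC UMIs of Cd82, and their part in the change with weighting was not tested. The gene lies at chr2:93419111-93463140 on the minus strand. Cd82, Cd34, Sdc3, Vcam1 and Itga7 overlap counted genes of the opposite strand in the annotation, and the handling of strand is not given in the sources used here, so their counts are less certain.

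**Figure D3:**
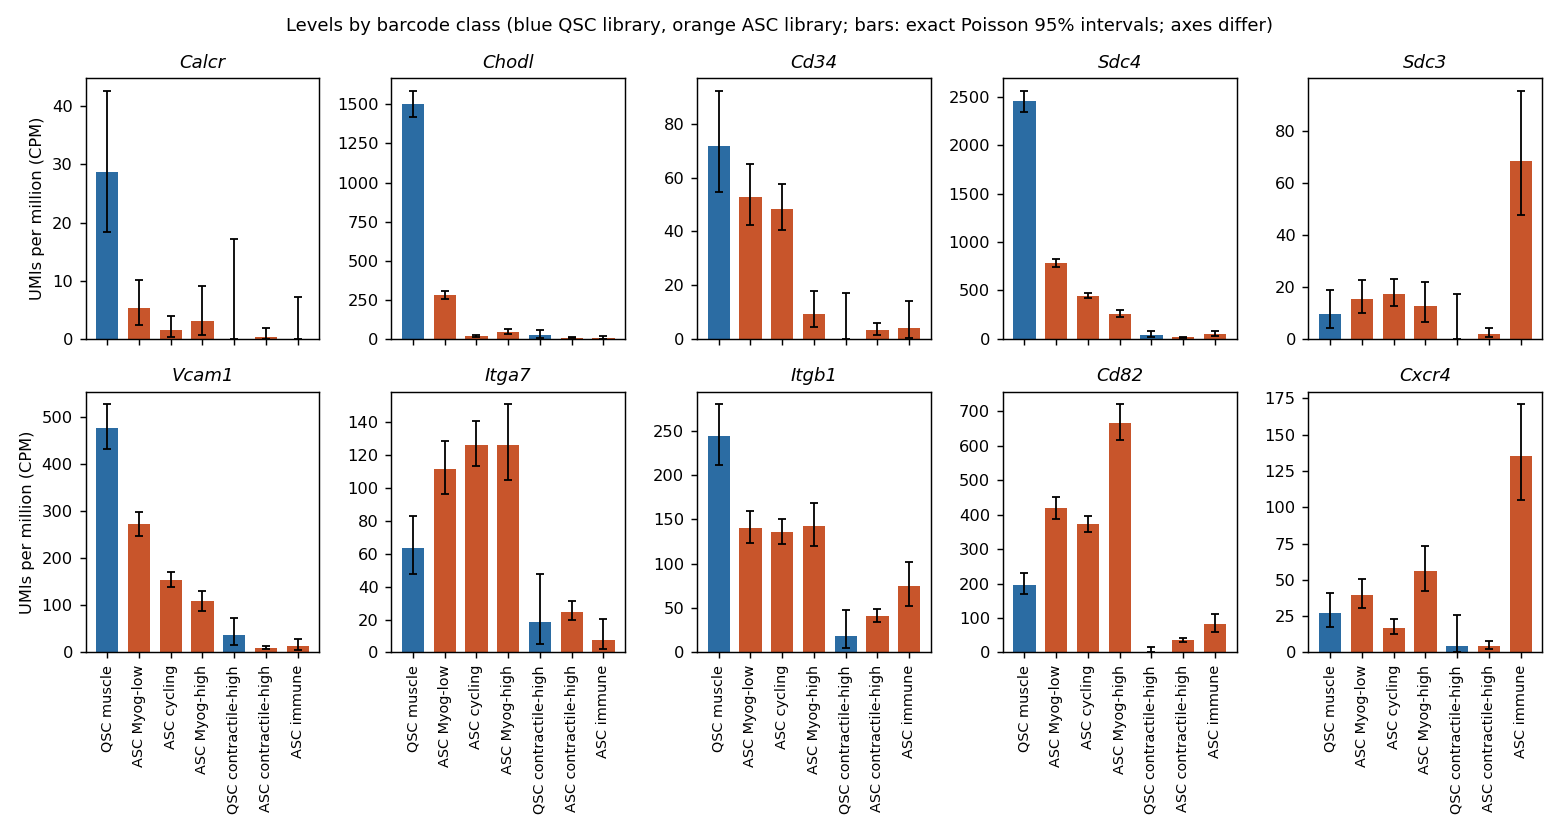
Level of each gene in CPM, on linear axes that differ between genes, in QSC contractile-low muscle barcodes (QSC muscle), the 3 ASC classes, the contractile-high barcodes of both libraries and ASC immune barcodes, with exact Poisson 95% intervals. Chodl is lowest in ASC cycling and Sdc4 in ASC Myog-high among the 4 contractile-low classes, Cd82 is highest in ASC Myog-high barcodes at 666 CPM, and Cxcr4 and Sdc3 are highest in ASC immune barcodes at 135 and 68.5 CPM.

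The share of barcodes with a UMI was compared after each barcode was thinned to 1200 UMIs, because ASC contractile-low muscle barcodes were deeper (a median of 8278 UMIs against 2221), and 3 QSC and 5 ASC barcodes below that depth were left out. A Chodl UMI was found in 78.0% of 363 QSC barcodes (73.3 to 82.1) and 23.0% of 418 ASC barcodes (19.0 to 27.3), where the unthinned shares were 94.5% and 44.7%. For Sdc4 the shares were 75.2% and 41.9% (unthinned 84.4% and 78.3%), and for Vcam1 41.6% and 18.2% (unthinned 56.3% and 63.4%). The order for Vcam1 thus turned without thinning, while its level in CPM was higher in the QSC library. Cd82 was found in 19.6% of QSC (15.6 to 24.0) and 35.9% of ASC barcodes (31.3 to 40.7), and unthinned in 32.5% and 82.7%.

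Free RNA gives some UMIs to barcodes of any kind, and immune barcodes were used as a rough measure of it. A UMI there can also come from the immune cell itself, so these shares do not measure free RNA alone. Cxcr4 and Sdc3, at 135 and 68.5 CPM in ASC immune barcodes, were higher there than in ASC contractile-low muscle barcodes (31.4 and 15.9 CPM). The 83 ASC immune barcodes that reached 1200 UMIs had a median depth of 6229 UMIs before thinning. Once they were thinned to 1200 UMIs a UMI of Chodl was found in 0 of 83, with an upper limit of 4.35%, and likewise none of Vcam1, Itga7 or Calcr. Unthinned, the shares over all 88 ASC immune barcodes were 3.41% for Chodl, 5.68% for Vcam1, 4.55% for Itga7 and 0 for Calcr. The thinned share for Cd82 there was 7.23% and for Sdc4 4.82%. In the QSC library only 12 immune barcodes reached 1200 UMIs, with a median depth of 2115 UMIs, and 1 of them held a Chodl UMI but 58.3% an Sdc4 UMI (27.7 to 84.8). Summed over all 16 QSC immune barcodes, Sdc4 was at 31.2% of its contractile-low muscle level (25 UMIs) and Chodl at 8.16% (4 UMIs). In QSC contractile-high barcodes Sdc4 was at 1.71% and Chodl at 1.55% of that level. The part of free RNA in these values was not tested. The Calcr share was 3.31% in QSC contractile-low muscle barcodes, against 1 of the 12 QSC immune barcodes (8.33%, 0.211 to 38.5). So few immune barcodes cannot tell whether the QSC share stood above free RNA. In ASC contractile-low muscle barcodes the share was 0.957%, below the upper limit of 4.35% in ASC immune barcodes. QSC contractile-high barcodes held no Calcr UMI, an upper limit of 17.2 CPM. The level in QSC contractile-low muscle barcodes was 28.7 CPM (18.4 to 42.6).

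**Figure D4:**
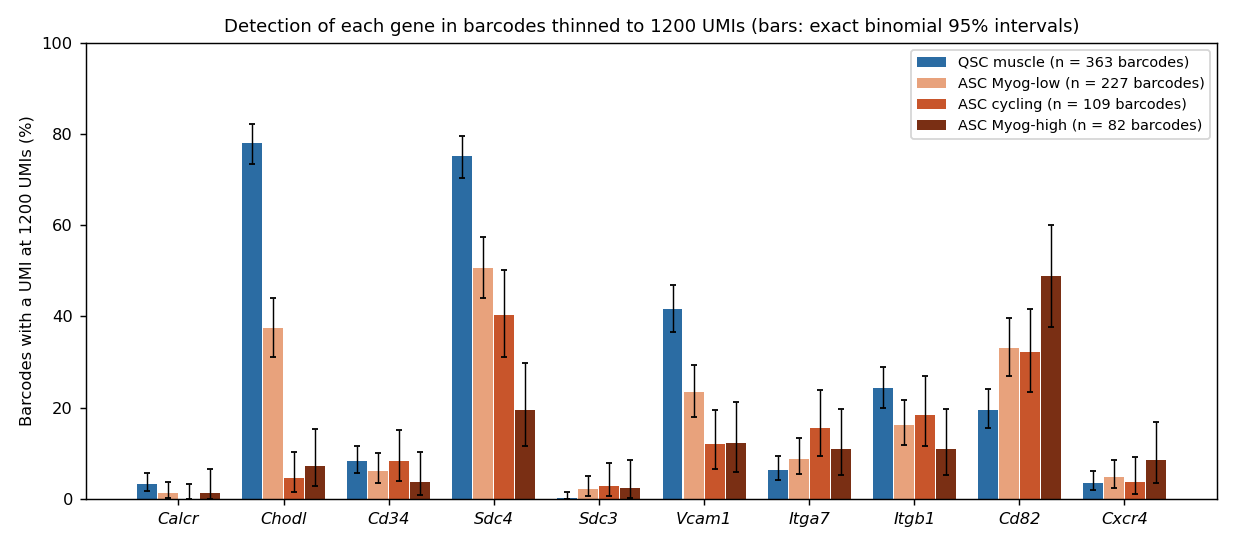
Percentage of barcodes with a UMI of each gene after thinning to 1200 UMIs in QSC contractile-low muscle barcodes (QSC muscle) and the 3 ASC classes, with exact binomial 95% intervals. Chodl goes from 78.0% in QSC muscle to 37.4% in Myog-low, 4.59% in cycling and 7.32% in Myog-high barcodes, and Cd82 is found most often in Myog-high barcodes (48.8%).

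At the level of single barcodes, Chodl and Sdc4 accounted for most of the detection in the QSC library. Of 363 QSC barcodes, 212 held UMIs of both genes, 71 of Chodl without Sdc4, 61 of Sdc4 without Chodl and 19 of neither. Of 418 ASC barcodes, 60 held both, 36 Chodl alone, 115 Sdc4 alone and 207 neither, so Sdc4 without Chodl was more frequent there than the reverse. In cycling barcodes Sdc4 without Chodl was found in 42 of 109 and Chodl without Sdc4 in 3. The number of the 10 genes found per barcode averaged 2.60 in the QSC and 1.61 in the ASC contractile-low muscle barcodes, and 53.4% and 21.3% held at least 3 of them. None of the genes was found in 1.93% of QSC, 17.2% of ASC Myog-low, 20.2% of cycling and 30.5% of Myog-high barcodes, compared with 83.3% and 87.3% of contractile-high barcodes in the QSC and ASC libraries.

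**Figure D5:**
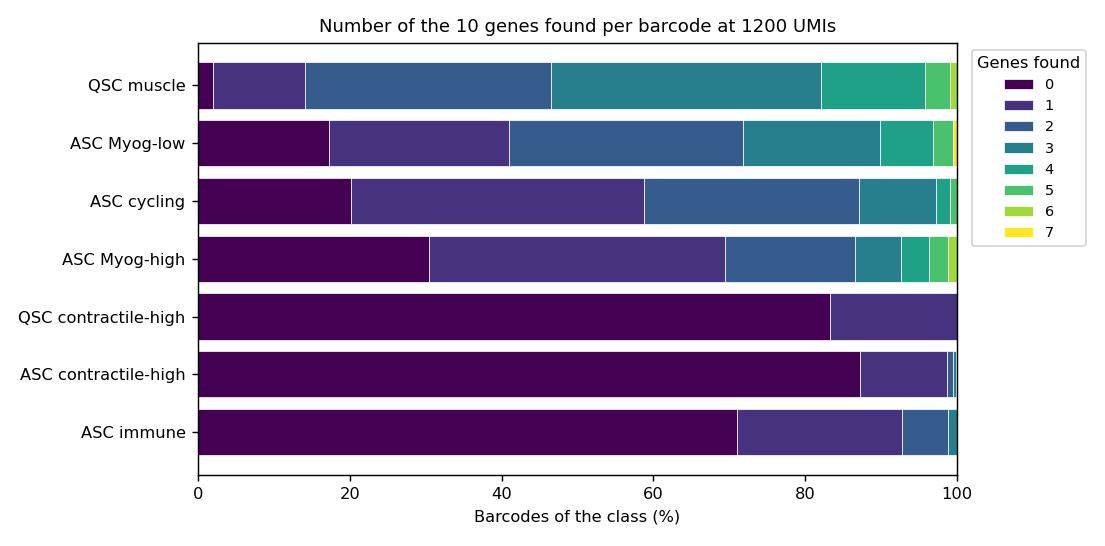
Percentage of barcodes in each class by the number of the 10 genes with a UMI after thinning to 1200 UMIs, from 0 (dark) to 7 (light). The QSC contractile-low muscle barcodes (QSC muscle) have the fewest barcodes without any of the genes (1.93%), and in contractile-high barcodes most have none.

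Presence of a Pax7 UMI marked little difference in these genes within the QSC library. In 118 QSC contractile-low muscle barcodes with a Pax7 UMI against 248 without, Sdc4 was higher by 0.25 on the log2 scale (0.12 to 0.38), and the intervals of the other 9 genes included 0. In the ASC library, the 103 barcodes with a Pax7 UMI had more Chodl, by 0.81 on the log2 scale (0.55 to 1.06), as well as more Sdc4 (0.42), Vcam1 (0.27) and Cxcr4 (0.51, 0.01 to 0.98). Myog was at 114 CPM in the ASC barcodes with a Pax7 UMI and 1204 CPM in the 320 without, and the median fibroblast marker share was 0.133% and 0.0286% of UMIs, and their part in these differences was not tested. Between barcodes with a Pax7 UMI in either library, the log2 ratio of ASC over QSC was -3.21 for Chodl (-3.45 to -2.97), -2.09 for Sdc4, -3.37 for Calcr (-5.31 to -1.84) and 0.99 for Cd82 (0.62 to 1.39). Itga7, with 23 QSC UMIs, did not differ beyond counting error in that comparison (0.46, -0.15 to 1.19). That interval also holds its log2 ratio of 0.93 over all contractile-low muscle barcodes. A Pax7 UMI is easier to find in a deep barcode. The median depth with and without one was 2442.5 and 2133 UMIs in the QSC library, but 7673 and 8360 UMIs in the ASC library.

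Myog-low ASC barcodes were also split at the median of their early-response share, a split chosen after the values of the classes were seen. The 115 barcodes in the upper part had Chodl at 519 CPM, against 145 CPM in the 115 of the lower part, a log2 ratio of 1.84 (1.56 to 2.12). Vcam1 was at 354 and 227 CPM (log2 ratio 0.64, 0.37 to 0.91), and Calcr at 11.7 and 1.84 CPM with 7 and 2 UMIs. Pax7 was likewise higher in the upper part, at 103 and 40.4 CPM. Cd82 (434 and 409 CPM), Itga7 (120 and 107 CPM) and Itgb1 (148 and 136 CPM) did not differ beyond counting error. The upper part was still below the QSC contractile-low muscle barcodes in Chodl (log2 ratio -1.53, -1.72 to -1.35), Sdc4 (-1.20) and Vcam1 (-0.43), and it was above them in Cd82 (1.14, 0.85 to 1.43). The median fibroblast marker share was 0.243% of UMIs in the upper and 0.0289% in the lower part, and the median depths were 4429 and 6780 UMIs, and their part in these differences was not tested.

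Ligands and partner chains of the 10 proteins were taken from a list of 30 genes, 16 of which had a mean of at least 5 CPM. In contractile-low muscle barcodes 10 of the 16 were at least 2-fold lower in the ASC library, 1 was at least 2-fold higher and 5 were within 2-fold, with a median log2 ratio of -1.49, beside 26.0% lower and 16.2% higher among all genes compared. Col5a3, a collagen V chain, was at 95.5 and 15.1 CPM in the QSC and ASC barcodes, a log2 ratio of -2.66 (-3.13 to -2.20). The laminin chain genes Lamb2 and Lamc1 had log2 ratios of -2.09 and -1.71. Col5a3 and Lamb2 were below 20 CPM in the ASC barcodes. They reached the mean of 20 CPM, required of named genes, only through the QSC library. Ramp2, which encodes a partner protein of calcitonin-family receptors, was at 137 and 58.6 CPM (-1.23), whereas Cxcl12, the ligand of Cxcr4, was at 49.0 and 39.3 CPM (-0.33, -0.81 to 0.20) and Col5a2 at 57.3 and 53.5 CPM (-0.11, -0.55 to 0.37). The 1 gene at least 2-fold higher was Itga5, a fibronectin receptor chain with 0 QSC UMIs there, named after its values were seen. Its mean of 5.01 CPM passed the filter through the ASC library alone. Among the lower genes, Itga1, Itga8 and Fn1 were below 5 CPM in the ASC barcodes and passed only through the QSC library. The filter thus helped to set the calls of these genes. Collagen and laminin genes are also expressed by fibroblasts, whose markers were higher in the QSC barcodes as given above. The part of fibroblast RNA in the ratios of these genes was not tested.

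Other surface genes of satellite cells came from a list of 32 genes, of which 29 had a mean of at least 5 CPM. Of these, 12 were at least 2-fold lower in the ASC contractile-low muscle barcodes, 4 at least 2-fold higher and 13 within 2-fold, with a median log2 ratio of -0.87, beside the same 26.0% and 16.2% of all genes, so the count of higher genes was near the background. Tek, among the lower genes, was at 1.89 CPM in the ASC barcodes and passed the filter only through the QSC library. The lowest were Tenm4, a teneurin, at 80.0 and 8.12 CPM (log2 ratio -3.29), and the Notch receptors Notch3 at 129 and 17.4 CPM (-2.89) and Notch2 at 265 and 56.1 CPM (-2.24). The highest were the heparan sulfate proteoglycans Gpc1 at 14.3 and 99.0 CPM (2.73, 1.97 to 3.75) and Sdc1 at 7.17 and 42.1 CPM (2.44, 1.41 to 4.02), and the hyaluronan receptor Cd44 at 31.1 and 206 CPM (2.70, 2.17 to 3.35). The lowest and highest were named among genes with a mean of at least 20 CPM. Tenm4 and Notch3 reached that mean only through the QSC library, and Gpc1 and Sdc1 only through the ASC library.

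Genes with a similar pattern were found from the correlation of log2(CPM + 1) over 9 classes of barcodes in the 2 libraries, among 9236 genes. These classes share libraries and differ in depth, so the correlations are descriptions. Chodl had a pattern like that of Prelp (r = 0.97), which was at 307 CPM in QSC contractile-low muscle, 135 CPM in Myog-low, 9.82 CPM in cycling and 20.8 CPM in Myog-high barcodes. Calcr was most like Tenm4 (r = 0.99), which was at 80.0, 19.6, 2.27 and 4.17 CPM in the same classes. Outside QSC contractile-low muscle and ASC Myog-low barcodes, Calcr had at most 4 UMIs in any class compared. Its 30.6 CPM in QSC immune barcodes was 1 UMI, so its correlations rest on counts near the floor. Vcam1 came closest to Cnn3 (r = 0.96) and Id3 (r = 0.95), Sdc4 to Abhd2, and Cd34 to Tusc3 and Gja1. For the genes that were not lower in the ASC library, the nearest were Xrcc1 and Ddx10 for Itga7, Emc3 and Lmna for Cd82, Brd1 and Sgpl1 for Sdc3, and Yipf1 and Sde2 for Cxcr4, and for Itgb1 they were Tcf7l2 and Mga. B430010I23Rik was second for Calcr (r = 0.97). In the QSC library Sdc3 had 8 UMIs in contractile-low muscle and 4 in immune barcodes. Cxcr4 had at most 1 UMI in each of the QSC contractile-high, immune and fibroblast classes. The correlations of Sdc3 and Cxcr4 thus also rest in part on counts near the floor.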

How the data were processed

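Sorted QSCs and ASCs were profiled as 1 droplet-based library each. The deposited values are UMI counts that the authors made with Cell Ranger, version 6.0.2 per the file headers, whereas the submitters' processing notes name Cell Ranger 7.1.0, Seurat 4.1.0, R 4.1.2 and mm10. The labels name both TA and hind-limb muscles as source. Of 766 QSC and 1650 ASC barcodes deposited (1346020 and 9059807 UMIs), 516 and 1468 were kept, holding 1162091 and 8895815 UMIs, and a count of 3, taken as the floor, was 2.58 and 0.337 CPM. Counts were summed and scaled to CPM, with exact Poisson intervals, exact conditional binomial intervals for ratios, Clopper-Pearson intervals for shares and 0.5 added for log2 ratios (Python 3.11.15, scipy 1.17.1; TMM factors from edgeR 4.0.16). The ratio step was tested on simulated data. Gene identifiers matched GENCODE M21 for 99.8% of features. The 10 genes, the lists and the classes were chosen with earlier results of these data known. Every one of the 10 genes was described. From each list, the 3 lowest and 3 highest ratios among genes with a mean of at least 20 CPM were named, and for each of the 10 genes the 2 genes with the highest Pearson correlation. A result that this rule gives for Chodl and for Sdc4 is not reported here. Alternatives were other filters on barcodes, class limits, scalings, weightings and thinning depths. No doublet caller was run.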

Additional observations from a re-analysis of the deposited data

Results flagged for a closer look

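Sdc4 differed between barcodes with more and with fewer early-response transcripts in opposite directions in the libraries. In QSC contractile-low muscle barcodes split at the median early-response share, the part above it had less Sdc4, at 1967 CPM against 2915 CPM in the part below, a log2 ratio of -0.57 (-0.70 to -0.44). In Myog-low ASC barcodes split in the same way, the part above the median had more, at 1064 CPM against 628 CPM, a log2 ratio of 0.76 (0.60 to 0.92). The difference between these ratios was not tested, the ASC split was chosen after its classes were seen, and the medians of the share differ between the libraries. No other gene of the 10 differed beyond counting error between the QSC parts, Chodl having a log2 ratio of 0.03 (-0.13 to 0.19).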

How the results depend on the processing

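Over all kept barcodes the results depended on the limit on mitochondrial UMIs. At the study's limit of 1%, 86 QSC barcodes (85 contractile-high, 25 UMIs of the 10 genes) and 948 ASC barcodes (876 contractile-high) remained. The median log2 ratio of the 10 genes was then 0.46, and 3 genes were at least 2-fold lower and 3 at least 2-fold higher (Cd82 at 4.56, Cxcr4 and Cd34 at 1.74). The log2 ratios of Cd34, Sdc4 (0.63) and Itgb1 (0.999) changed sign. At the main limit, QSC contractile-high barcodes held 0 UMIs of Cd82 and of Cd34 and 1 of Cxcr4. The ratios at the 1% limit thus rest on QSC counts near the floor. The median was -1.02 with TMM scaling, under which 2 genes were at least 2-fold higher, -1.10 with scaling to the median gene and -1.81 with every barcode weighted equally. Of 110 values for single genes over all barcodes under the alternatives, 77 stayed within their counting interval, 30 moved beyond it with the sign of any called value kept, and the 3 named changed sign. In contractile-low muscle barcodes 78 of 90 stayed within it and 12 moved. There Chodl ranged from -3.91 to -2.54, Sdc4 from -2.36 to -1.74, Calcr from -3.38 to -2.13, Vcam1 from -1.47 to -0.98 and Cd82 from 1.004 to 1.46, and Cxcr4, not called, reached -0.02. Leaving out barcodes with over 30000 UMIs, an alternative chosen after seeing the data, gave -3.35 for Chodl and -2.13 for Sdc4. The causes of these shifts were not tested. Depth limits Calcr (24 QSC UMIs) and Sdc3 (8 QSC UMIs) most. No paired analysis was possible because each group has 1 library and no replicate number.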
